A study of Mus musculus and Homo sapiens with 22 samples.

Results

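The 10 genes described here encode the core and naive pluripotency transcription factors of the mouse. They were taken as a list of names, Pou5f1, Sox2, Nanog, Klf2, Klf4, Klf5, Esrrb, Tfcp2l1, Zfp42 and Tbx3, out of 56196 genes listed in the count files, and all 10 were among the 15731 genes with enough counts to be tested. RNA-seq of poly(A)+ RNA was available for 3 wild-type (WT) and 3 Mettl3 knockout (KO) replicates of mouse embryonic stem cells (mESCs), which carried no other named change. Both genotypes came from an earlier publication and were grown in serum with leukaemia inhibitory factor (LIF), a medium that does not hold cells in a uniform naive state. The age and sex of the lines are not given in the sources used here. Sites of N6-methyladenosine (m6A) came from a list of WT mESCs that pools 3 miCLIP2 replicates, and from 4 lists of purchased mouse heart RNA with 1 library per input (1000, 300, 100 and 50 ng of poly(A)+ RNA). In miCLIP2, UV light links an m6A antibody to the RNA it holds, the position of the base is taken from truncated cDNAs, and the classifier m6Aboost then scores each peak at an A. Since m6Aboost was trained on peaks lost in Mettl3 KO mESCs and reads the 21 nt around the A and the transcript region, the motif and the region of a site are partly set by the method. m6Aboost also reads C-to-T transitions and the signal of a peak relative to the mean over the peaks of its gene. The score ranks confidence and does not measure the share of RNA that is methylated.

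Oct4 (Pou5f1), Sox2 and Nanog bind together at enhancers of genes active in pluripotent cells, their own included, and form the core of the network. Klf4, Klf5, Esrrb, Tfcp2l1 and Tbx3 link this core to LIF or to inhibition of Gsk3. Several of them, and Klf2, can stand in for each other in keeping cells in the naive state of the early epiblast. Mettl3 is the catalytic subunit of the methyltransferase that puts m6A on mRNA, mostly within the motif DRACH (A, G or T, then A or G, then the modified A, then C, then A, C or T), and many m6A-marked mRNAs are short-lived.

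The libraries held 22746733 to 27254245 counts in genes. Mettl3 itself, which checks the labels, was counted 560, 698 and 612 times in the WT libraries and 462, 669 and 457 times in those of the KO, or 27.3 ± 1.39 against 19.3 ± 2.95 CPM (counts scaled to a fixed total per library with TMM factors, SD, n = 3). Its log2 fold change of -0.50 ± 0.14 (SE) did not pass the threshold without the replicate numbers (adjusted p = 0.0134, edgeR) and did once they entered as a block (adjusted p = 0.00281). RNA of the targeted gene was thus still counted in every KO library, and the counts do not show which part of it is intact. Of 5 mESC markers, Fgf4 (349 ± 28.8 CPM in WT) and Dppa4 (47.0 ± 7.20 CPM in WT) did not pass the test, whereas Tdgf1, Dppa5a and Utf1 fell. The 5 markers together summed to 2291 to 2308 CPM in WT and 937 to 993 CPM in KO. The 9 feeder fibroblast markers summed to 10.4 to 15.2 CPM in WT and 13.5 to 15.1 CPM in KO, with Lum and Dcn at no more than 3 counts in any library. Replicate 2 of either group stood apart from the other 2 libraries of its group (chi-square per degree of freedom of 34.0 to 92.3 for pairs with it, 26.6 and 7.92 for the pairs without it), and values without it are given where a call rests on it. The same 3 members were called changed without replicate 2 of both groups.

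Of the 10 members, 1 rose and 2 fell in the KO. Klf2 rose 3.06-fold, whereas Klf5 fell to 0.529 and Tfcp2l1 to 0.667 of the WT level, and the other 7 did not pass an adjusted p of 0.01 (edgeR, quasi-likelihood test, Benjamini-Hochberg over all genes tested). Over all genes 29.7% were called, 17.1% higher and 12.6% lower, so the 3 of 10 members called lie at the background. The median log2 fold change was -0.05 over the members and -0.02 over all genes tested. Of all calls 57.5% were higher in the KO, and with scaling by library size only, which moved the median of all genes by 0.10, this share was 71.0%. The ranges of the WT and KO libraries did not overlap for 4 members, Klf2, Klf5, Tfcp2l1 and Esrrb, against 56.1% of all genes tested. Under the other settings named below, 28.6% of all genes were called with DESeq2, 29.8% with its size factors in edgeR, 26.3% with library size only, 20.6% with no filter, 28.4% under a minimum of 10 counts in each library and 43.5% with the replicate block. Without WT replicate 1, 2 or 3 the share was 19.1, 25.6 or 33.1%, without KO replicate 1, 2 or 3 it was 17.1, 21.8 or 19.3%, and without replicate 2 of both groups 19.4%. In bulk RNA, fewer cells that express a gene and less RNA per cell cannot be told apart.

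**Figure D1:**
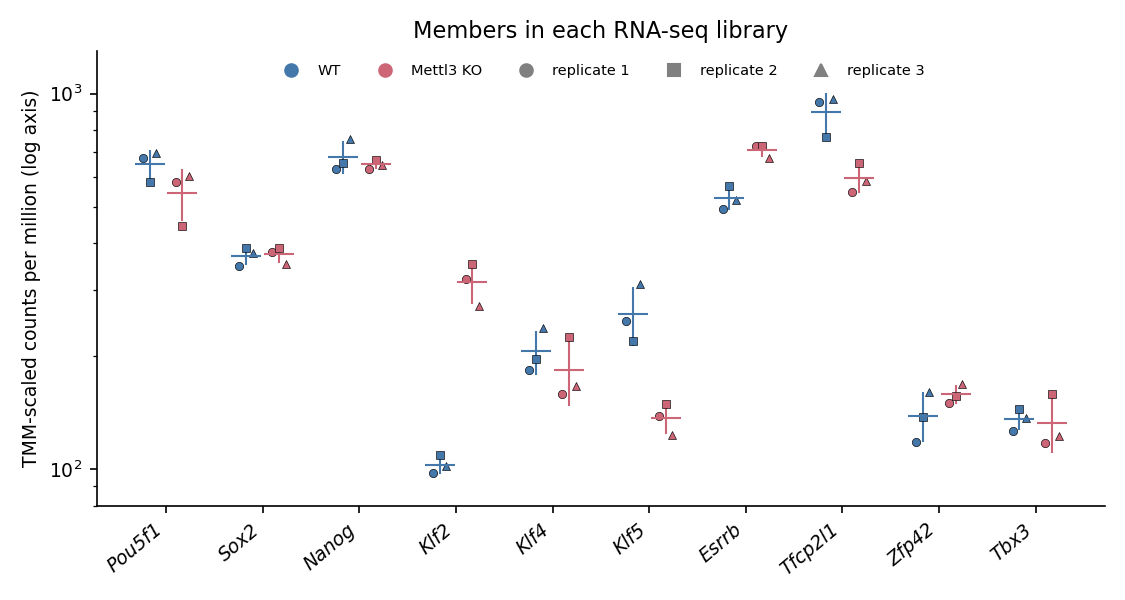
TMM-scaled CPM (log axis) of the 10 members in each of the 6 RNA-seq libraries, WT in blue and Mettl3 KO in red, with the shape giving the replicate number, the horizontal line the mean and the vertical line the SD (n = 3). The KO libraries of Klf2 sit between 272 and 352 CPM, all above the WT libraries at 97.8 to 109 CPM, and those of Klf5 and Tfcp2l1 sit below WT.

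Levels between genes were compared as TPM, the share of transcripts once counts are divided by the exon length of the gene and scaled to a fixed total. The exon length takes in all annotated exons and can exceed that of the longest coding transcript. It was 2248 against 1362 nt for Pou5f1 and 2242 against 2211 nt for Nanog. It was 6047 against 4300 nt for Esrrb and 9438 against 9269 nt for Tfcp2l1. Transcript length would raise Pou5f1 against Nanog and Esrrb against Tfcp2l1, and the order was not recomputed with it. In WT, Nanog (813 ± 110 TPM, SD, n = 3) and Pou5f1 (772 ± 41.5 TPM) were highest and their libraries overlapped. Sox2 followed at 488 ± 96.3 TPM, apart from both neighbours. Tfcp2l1 (252 ± 4.60 TPM), Esrrb (237 ± 52.2 TPM), Zfp42 (199 ± 38.1 TPM), Klf4 (181 ± 27.5 TPM), Klf2 (151 ± 31.1 TPM) and Klf5 (133 ± 12.8 TPM) each overlapped with the next in this order, and Tbx3 was lowest at 55.8 ± 11.9 TPM with no overlap. In the KO, Klf2 moved from place 8 to place 4, at 502 ± 107 TPM, where its libraries overlapped with those of Sox2 (532 ± 72.8 TPM). By exon length, Nanog and Pou5f1 stayed at places 1 and 2, at 846 ± 104 and 701 ± 54.2 TPM.

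The mESC list held 97 sites in exons of the members, each in exons of 1 gene only. Every member had a site, from 1 in Pou5f1 to 15 in each of Sox2, Klf4 and Esrrb. The sites fell 3 times in the 5′ UTR, 46 times in the coding sequence and 48 times in the 3′ UTR. The last exon held 76 of them, the only exon of Sox2 included. No site lay nearer than 21 nt to an exon junction. DRACH was present at 87 of the 97 sites (89.7%), against 92.9% of all 25456 sites of the list, and the median score of 0.755 lay near that of the whole list (0.745). Per kb of the longest coding transcript, Sox2 held 7.29 sites, Klf4 4.95 and Klf2 4.33, whereas Pou5f1 held 0.734 and Tfcp2l1 0.755. Among the 1963 tested coding genes with a WT level within the range of the members, 76.5% had a site, the median was 2 sites or 0.833 per kb, and 7.44% had 10 or more sites, as 5 of the members had. The number of sites that can be found in an mRNA also depends on its level and length.

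The window that m6Aboost reads, 10 nt to either side of the A, is shown for the highest-scoring mESC site of 8 members (GRCm38, 5′ to 3′ on the strand of the gene), with the pentamer centred on the modified A in capitals. All 8 pentamers are DRACH motifs. Klf2 and Zfp42 are left out here, and their highest-scoring sites are at GGACC and at GTACT, of which GTACT is no DRACH motif.
Pou5f1, chr17:35506327, coding sequence, exon 1 of 5, score 0.821: ctcaggttGGACTgggcctag
Sox2, chr3:34651663, 3′ UTR, single exon, score 0.928: ggggaatcGGACCatgtatag
Nanog, chr6:122713557, 3′ UTR, exon 4 of 4, score 0.775: gaaatatgAGACTtacgcaac
Klf4, chr4:55528239, coding sequence, exon 5 of 5, score 0.879: gctccgatGAACTgaccaggc
Klf5, chr14:99314592, 3′ UTR, exon 4 of 4, score 0.861: taaccaaaGGACAgaaaccac
Esrrb, chr12:86520805, 3′ UTR, exon 7 of 7, score 0.910: aagagaatGGACCagtgacag
Tfcp2l1, chr1:118677573, 3′ UTR, exon 15 of 15, score 0.961: acaaccatGGACAcaaagtct
Tbx3, chr5:119681002, coding sequence, exon 6 of 7, score 0.948: cagcgcagGGACTgtctgggg

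**Figure D2:**
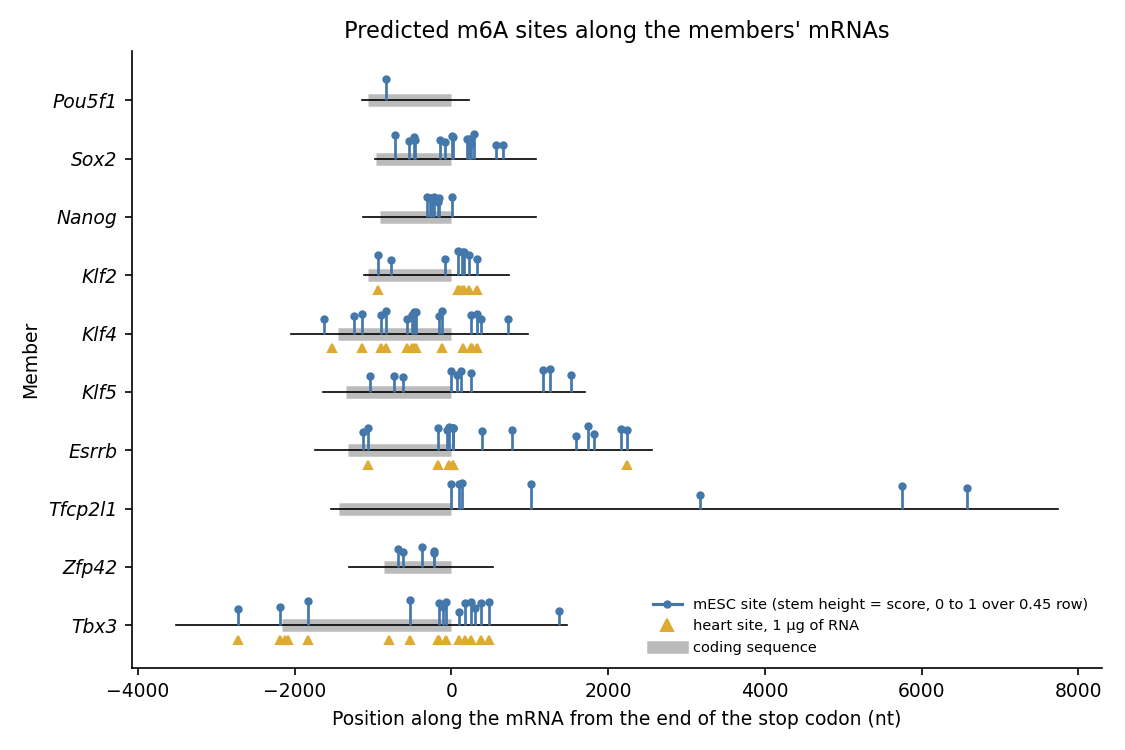
Predicted m6A sites along the mRNA of each member, in nt from the end of the stop codon, with the coding sequence in grey and the untranslated regions as a line. Blue stems mark mESC sites and their height the score, and yellow triangles mark sites of the heart list from 1 µg of RNA, which lie in Klf2, Klf4, Esrrb and Tbx3.

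Pou5f1 (ENSMUSG00000024406.16, chr17:35506018-35510772, plus strand) encodes Oct4, without which no pluripotent inner cell mass forms. It was the least marked member, with 1 site in exon 1, at position -831 nt from the end of the stop codon, although its transcript holds 26 DRACH motifs. Its level was 675, 581 and 693 CPM in WT and 582, 445 and 605 CPM in KO. The KO value was below WT in each of the 3 replicate pairs, but the groups overlapped and the log2 fold change of -0.26 ± 0.14 (SE) did not pass the test (edgeR adjusted p = 0.165). An edgeR fit that blocks on the replicate numbers, which were taken to pair the samples, gave an adjusted p of 0.0353.

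Sox2 (ENSMUSG00000074637.7, chr3:34650405-34652461, plus strand) encodes the partner of Oct4 at composite binding sites and is a gene with a single exon. It held the densest set of sites, 6 in the coding sequence and 9 in the 3′ UTR, and 13 DRACH sites made up 35.1% of the 37 DRACH motifs in its transcript. A pair 7 nt apart, at chr3:34651383 and chr3:34651390, followed 8 and 15 nt after the stop codon with scores of 0.869 and 0.812. Its RNA did not pass the test, with a log2 fold change of 0.01 ± 0.11 (SE, edgeR adjusted p = 0.947). The WT libraries held 347, 388 and 377 CPM and the KO libraries 379, 389 and 352 CPM, so the groups overlapped throughout.

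Nanog (ENSMUSG00000012396.12, chr6:122707489-122714633, plus strand) encodes the homeodomain factor whose level varies from cell to cell in serum with LIF. All of its 7 sites lay in the last exon, 6 in the coding sequence and 1 at 2 nt after the stop codon. Of these, 4 lay exactly 30 nt apart, in codons 204, 214, 224 and 234 of 305. Each followed directly on a TGG codon, which encodes tryptophan, within the tryptophan repeat of Nanog, where 10 TGG codons (198 to 243) lie 5 codons apart. The pentamer formed by the end of the TGG codon and the next codon is a DRACH motif after 4 of these 10 codons, each time GGACC, and those were the 4 with a site. The windows are shown because the repeat puts near copies of the same sequence under 4 sites.
Nanog, codon 204, chr6:122713247, score 0.755: ccagacttGGACCaacccaac
Nanog, codon 214, chr6:122713277, score 0.735: ccagacctGGACCaacccaac
Nanog, codon 224, chr6:122713307, score 0.738: ccagacctGGACCaacccaac
Nanog, codon 234, chr6:122713337, score 0.755: ccaggcctGGACCgctcagtc
The windows at codons 214 and 224 were identical in 21 of 21 bases, the window at codon 204 shared 20 of 21 bases with both, and that at codon 234 shared 13 or 14 with the others. All 4 scores lay between 0.735 and 0.755. Whether reads were placed in the right copy of the repeat was not tested. Nanog RNA was 629, 652 and 755 CPM in WT and 631, 667 and 645 CPM in KO. The KO range lay within the WT range, and the log2 fold change of -0.07 ± 0.12 (SE) did not pass the test (edgeR adjusted p = 0.659). The pseudogenes Nanog-ps1 and Nanog-ps2 had 2 and 0 counts over the 6 libraries.

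Klf2 (ENSMUSG00000055148.7, chr8:72319033-72321656, plus strand) encodes a zinc finger factor of the naive network that is low in cells in serum with LIF. Its WT libraries held 97.8, 109 and 102 CPM and its KO libraries 320, 352 and 272 CPM. Every KO library was thus higher than every WT library by a wide margin, and the log2 fold change was 1.61 ± 0.12 (SE, edgeR adjusted p = 1.24e-05). It was 1.53 to 1.72 when any 1 library was left out and 1.56 without replicate 2 of both groups (adjusted p = 0.000263). Of its 8 sites, 3 lay in the coding sequence and 5 in the 3′ UTR. Those in the 3′ UTR lay 90, 131, 161, 226 and 329 nt after the stop codon, with scores of 0.925, 0.880, 0.907, 0.767 and 0.623, and the first 3 of these were the highest scores of the gene. All 8 were DRACH sites, 32.0% of the 25 DRACH motifs of the transcript, and 3 of them carried TGACT. Klf2 lies on chromosome 8, of which 829 genes were tested, with a median log2 fold change of -0.44 and 73.1% of the genes below 0. 24 of these genes had a higher log2 fold change than Klf2.

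Klf4 (ENSMUSG00000003032.8, chr4:55527143-55532466, minus strand) encodes a direct target of LIF signalling through Stat3 and a factor of the original reprogramming set. It had 15 sites, of which 10 lay in the coding sequence, and 8 of these in the long internal exon 3 (985 nt). Its WT libraries held 184, 196 and 237 CPM and its KO libraries 158, 224 and 167 CPM. The groups overlapped, replicate pair 2 differed in direction from pairs 1 and 3, and the log2 fold change of -0.17 ± 0.15 (SE) did not pass the test (edgeR adjusted p = 0.392). Without replicate 2 of both groups it was -0.39 (adjusted p = 0.0568).

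Klf5 (ENSMUSG00000005148.8, chr14:99298691-99315036, plus strand) encodes the third of these Krüppel-like factors, needed for the early blastocyst lineages. It was lower in every KO library (139, 150 and 123 CPM) than in any WT library (248, 219 and 311 CPM). The log2 fold change of -0.92 ± 0.14 (SE) passed the test (edgeR adjusted p = 0.000597) and lay between -1.04 and -0.77 when any 1 library was left out. Its 10 sites were spread over exon 2 (3 sites) and exon 4 (7 sites), and a group of 3 lay 1172 to 1522 nt after the stop codon. None was at GGACT, the most common pentamer of the list (22.9% of all sites).

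Klf2, Klf4 and Klf5 overlap in function, so their levels per length were also added up. The sum was 402 to 525 TPM in WT and 629 to 952 TPM in KO, with no overlap between the groups in this unit. Ranges in CPM did not overlap for 56.1% of all genes tested. TPM carry no TMM factors, and the separation of the sum depends on the unit. In TMM-scaled CPM, not divided by length, WT replicate 3 held 102, 237 and 311 for Klf2, Klf4 and Klf5, and KO replicate 3 held 272, 167 and 123. The share of Klf2 in it was 32.4 ± 3.52% (SD, n = 3) in WT and 66.4 ± 2.11% in KO. Klf5 made up 28.7 ± 2.87% in WT and 10.3 ± 0.424% in KO, and Klf4 38.9 ± 1.45% and 23.3 ± 2.39%. By this measure Klf4 was the largest of the 3 in every WT library and Klf2 in every KO library. The WT order of Klf4 and Klf5 and the shares depend on the length used. The exon length was 5201 nt for Klf5 and 3049 nt for Klf4, and their longest coding transcripts have 3352 and 3029 nt. In CPM, which are not divided by length, Klf5 was above Klf4 in every WT library.

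**Figure D3:**
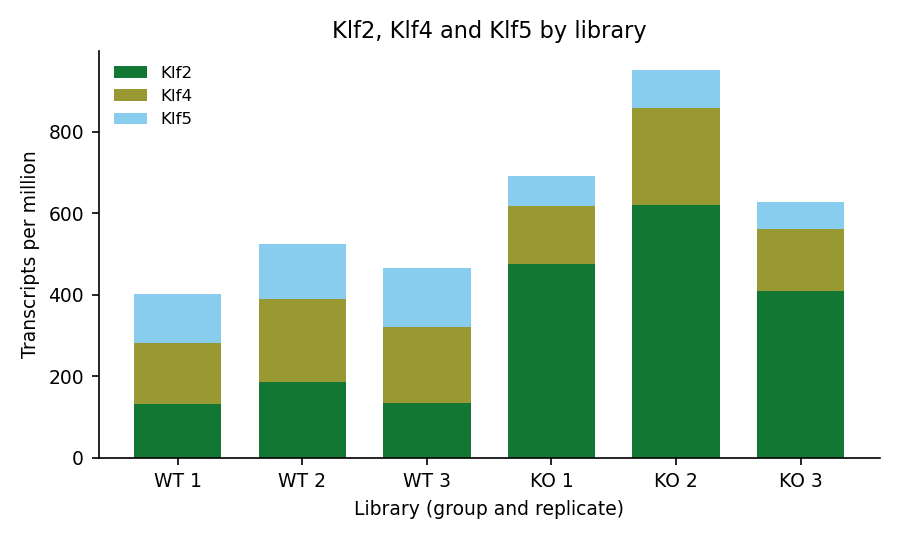
Klf2, Klf4 and Klf5 stacked as TPM (by union exon length) in each of the 6 RNA-seq libraries. Klf2 takes 65.1 to 68.8% of the sum in the KO libraries and 28.6 to 35.6% in the WT libraries.

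Esrrb (ENSMUSG00000021255.17, chr12:86361117-86521628, plus strand) encodes an orphan nuclear receptor that is repressed by Tcf7l1 and can take the place of Nanog. Its WT libraries held 494, 566 and 522 CPM and its KO libraries 726, 725 and 675 CPM. The groups did not overlap, and the log2 fold change was 0.43 ± 0.11 (SE). It missed the threshold of 0.01 (edgeR adjusted p = 0.0106) but passed it in the fit blocked on the pairing (adjusted p = 0.00191), with DESeq2 (adjusted p = 0.000842) and with a stricter or no filter on low counts (adjusted p = 0.00838 and 0.00224). These were 4 of 13 refits. The other edgeR refits did not call Esrrb, with DESeq2 size factors (adjusted p = 0.01185) or library size only (0.0102). Nor was it called without replicate 2 of both groups (0.0179) or when any 1 library was left out (0.0106 to 0.0556). Esrrb held 15 sites, 10 of them in the 3′ UTR. A group of 3 sites 4 nt apart lay 16, 20 and 24 nt after the stop codon, at adjacent copies of the letters GGAC, with scores of 0.836, 0.838 and 0.845. The first 2 of these are at GGACG, which is no DRACH motif, and the third is at GGACA.

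Tfcp2l1 (ENSMUSG00000026380.10, chr1:118627945-118685168, plus strand) encodes a LIF target of the grainyhead family that can sustain self-renewal when its level is raised experimentally. Its WT libraries held 947, 764 and 966 CPM and its KO libraries 548, 652 and 586 CPM. The groups did not overlap, and the log2 fold change of -0.58 ± 0.13 (SE) passed the test (edgeR adjusted p = 0.00519). The call was lost without WT replicate 1 (adjusted p = 0.0267), without KO replicate 1 (0.0384), without KO replicate 3 (0.0274) and with scaling by library size only (0.0139), and it held without replicate 2 of both groups (log2 fold change -0.77, adjusted p = 0.00236). Tfcp2l1 had few sites for its length, 7 in a transcript of 9269 nt, and its 6 DRACH sites made up 2.96% of the 203 DRACH motifs. All 7 lay in the last exon of 7781 nt. These few sites scored high, with a median of 0.925, and 4 of the 12 sites of the members with a score of at least 0.9 were here. The score also rests on signal relative to the other peaks of the gene, and the part of this in the high scores was not tested. The first 3 lay around the stop codon (6 nt before its end and 102 and 139 nt after it) and the last at 6580 nt into the 3′ UTR.

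Zfp42 (ENSMUSG00000051176.6, chr8:43295063-43306980, minus strand) encodes Rex1, a reporter of the naive state that the network does not need. Its 5 sites all lay in the coding sequence of the last exon, had a median score of 0.596, the lowest among the members, and included 2 without DRACH. The highest-scoring of them (chr8:43295975, score 0.761) is at GTACT, which is no DRACH motif. Its WT libraries held 118, 138 and 161 CPM and its KO libraries 150, 157 and 168 CPM. KO was above WT in each replicate pair, but the groups overlapped and the log2 fold change of 0.19 ± 0.13 (SE) did not pass the test (edgeR adjusted p = 0.244). The pseudogene Zfp42-ps1 had 1800 counts over the 6 libraries, so reads may be split between the copies. Zfp42 also lies on chromosome 8.

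Tbx3 (ENSMUSG00000018604.18, chr5:119670669-119684724, plus strand) encodes a T-box repressor that acts downstream of phosphoinositide 3-kinase and is also used in the conduction system of the heart. It had 14 sites, with 2 in the 5′ UTR, 5 in the coding sequence and 7 in the 3′ UTR, and a median score of 0.846. Its WT libraries held 127, 145 and 137 CPM and its KO libraries 118, 158 and 123 CPM. The groups overlapped, and the log2 fold change of -0.04 ± 0.13 (SE) did not pass the test (edgeR adjusted p = 0.836).

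Set beside the change in RNA, the number of sites did not order the members. The 5 members with 10 or more sites ranged from -0.92 (Klf5) to 0.43 (Esrrb) on the log2 scale, and the 4 with 5 to 9 sites from -0.58 (Tfcp2l1) to 1.61 (Klf2). Over the 10 genes, Spearman's rho of site number and log2 fold change was 0.23 and Pearson's r was 0.04, given as a description since the genes share the same libraries. Leaving out KO replicate 2 gave a rho of 0.02. With sites per kb rho was 0.44, and without Klf2 and Zfp42, the members on chromosome 8, it was 0.63. Site number also went with transcript length (rho 0.46) and against WT level (rho -0.34). Among all tested genes, the median change was -0.03 on the log2 scale where no site was listed, -0.12 with 1 site, -0.03 with 2 to 4, 0.12 with 5 to 9 and 0.19 with 10 or more. Genes with 10 or more sites were called higher in 26.1% and lower in 7.28% of cases, and those without a site in 16.9% and 11.2%. Against these classes, Klf5 and Tfcp2l1 lay below the interquartile range of their class, Klf2 above it and Klf4 just below it, while the other 6 members lay within.

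**Figure D4:**
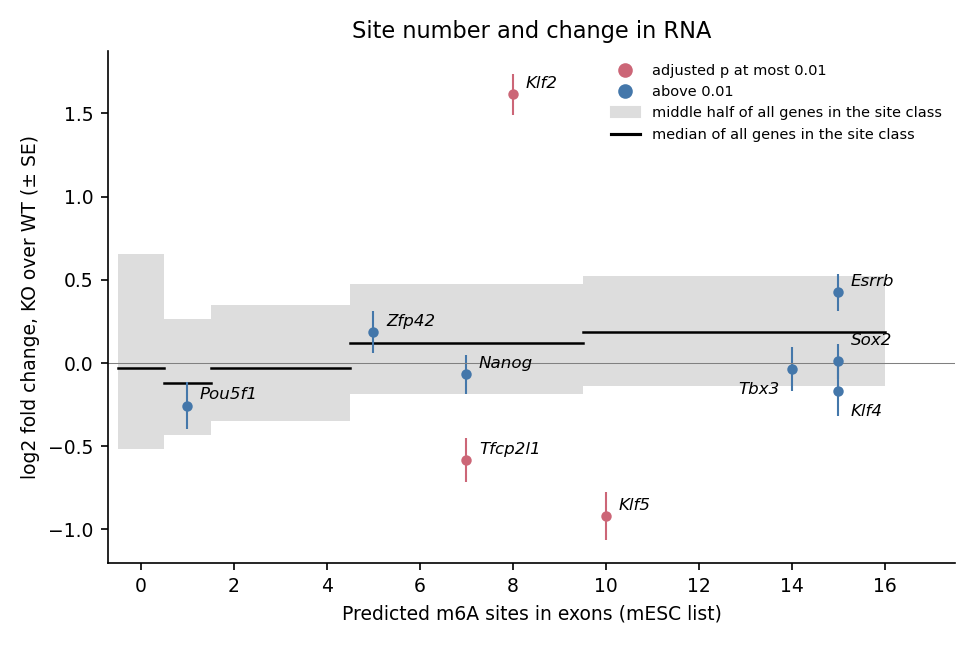
log2 fold change of each member (KO over WT, ± SE) against its number of predicted m6A sites in exons. Grey bands show the interquartile range and black lines the median of all tested genes with 0, 1, 2 to 4, 5 to 9 and 10 or more sites, and red points mark the members with an adjusted p of at most 0.01. Klf2 lies far above and Klf5 and Tfcp2l1 below the band of their class.

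In heart RNA, sites were listed in 4 members. The list from 1 µg held 7 sites in Klf2, 13 in Klf4, 6 in Esrrb and 15 in Tbx3, 41 in all, and none in Pou5f1, Sox2, Nanog, Klf5, Tfcp2l1 and Zfp42, although it is the longer list (46421 sites). As a check of the tissue, the heart genes Ryr2, Tnnt2 and Myh6 had 23, 2 and 1 sites there and none in the mESC list, while Nppa and Actc1 had none in either. A gene with no RNA in a sample cannot have a site, and RNA levels in heart were not analysed here, so absence of RNA and absence of m6A cannot be told apart. Of the 52 mESC sites in these 4 members, 33 were at the same base in heart, which is 63.5% of the mESC and 80.5% of the heart sites. All 6 heart sites of Esrrb were also mESC sites, and so were 6 of 7 in Klf2, 10 of 13 in Klf4 and 11 of 15 in Tbx3. The shared mESC sites had a median score of 0.842 and the other mESC sites of these 4 genes of 0.661, given as a description.

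The shared sites of Esrrb are shown, together with those of Klf4 and Tbx3 that were also listed from 300 ng of heart RNA, because they recur in separate samples.
Esrrb, chr12:86470391, coding sequence: agctacgaGGACTgtactagt
Esrrb, chr12:86518890, coding sequence: gcgctgcaGGACTatgagctg
Esrrb, chr12:86519032, coding sequence: ccatgcacAAACTcttcctgg
Esrrb, chr12:86519081, 3′ UTR: cagcacatGGACGgacggaca
Esrrb, chr12:86519089, 3′ UTR: ggacggacGGACAcgatccaa
Esrrb, chr12:86521309, 3′ UTR: ttccctccAGACTtgactact
Klf4, chr4:55530553, coding sequence: aacctggcGGACAtcaatgac
Klf4, chr4:55530493, coding sequence: ccggagttGGACCcagtatac
Klf4, chr4:55530129, coding sequence: gtcccgagGAACTgctgaaca
Klf4, chr4:55530112, coding sequence: aacagcagGGACTgtcaccct
Klf4, chr4:55528239, coding sequence: gctccgatGAACTgaccaggc
Klf4, chr4:55527873, 3′ UTR: aaatcacaGAACAgatggggt
Tbx3, chr5:119682933, coding sequence: cggggtcgGAACTgaacagcc

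In Klf2, the 3 sites with the highest mESC scores, at chr8:72321009, chr8:72321080 and chr8:72321050, were also the 3 with the highest values in the 1 µg heart list, and 2 of them carry TGACT, as does the neighbour at chr8:72321145. The site at chr8:72321050 was the only site of the members listed from 100 ng of heart RNA. With 300 ng, 12 sites of the members were listed (5 in Klf2, 6 in Klf4 and 1 in Tbx3), all of them among the 41, and with 50 ng none. These lists hold 8845, 1112 and 248 sites in all.

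The other genes of the network were read from 4 further lists. Of the other pluripotency regulators, 14 of 15 were tested (Foxd3 had no counts), 2 rose and 2 fell, so the 4 called lie at the background of 29.7%. Mycn, a Myc family factor, rose by 0.66 ± 0.11 on the log2 scale (SE, edgeR adjusted p = 0.000848) and Sall4, a zinc finger partner of Oct4, by 0.58 ± 0.12 (adjusted p = 0.00258). Lin28a, which blocks processing of let-7 miRNAs, fell by 0.90 ± 0.16 (adjusted p = 0.00134) and Stat3, the effector of LIF, fell by 0.78 ± 0.10 (adjusted p = 0.00018). Sall4 was no longer called without WT replicate 1, without KO replicate 1 or 2, or without replicate 2 of both groups.

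Of the 14 naive and pluripotency marker genes, none rose and 6 fell, where 17.1% of all genes tested rose and 12.6% fell. The median log2 fold change was -0.53, against -0.02 over all genes. Tdgf1, a Nodal co-receptor, fell by 1.98 ± 0.18 (SE, edgeR adjusted p = 2.67e-05), from 903 ± 173 to 229 ± 41.1 CPM (SD, n = 3). Dppa5a, which encodes an RNA-binding protein of pluripotent cells, fell by 1.68 ± 0.14 (adjusted p = 2.25e-05), from 957 ± 163 to 298 ± 14.8 CPM. Jam2, a junctional adhesion molecule, fell by 1.44 ± 0.16 (adjusted p = 8.49e-05) and Utf1, a chromatin factor, by 1.25 ± 0.16 (adjusted p = 0.00021). Dppa3 was not called (0.65 ± 0.47, adjusted p = 0.276) and was called with the replicate block (adjusted p = 0.00234), as was Lefty2 (adjusted p = 0.00334). The list summed to 3861 to 4300 CPM in WT and 2443 to 2492 CPM in KO, whereas the 10 members summed to 3758 to 4260 CPM in WT and 3716 to 3919 CPM in KO.

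Of the 13 formative and primed genes, which mark the later epiblast, 11 were tested, 2 rose and 2 fell, so 4 were called beside 29.7% of all genes. Lef1, a Wnt effector, fell by 3.52 ± 0.26 on the log2 scale (SE, edgeR adjusted p = 1.16e-05) and Otx2, a driver of the formative state, fell by 1.05 ± 0.27 (adjusted p = 0.00967). Sall2 rose by 0.75 ± 0.18 (adjusted p = 0.0072). Foxa2 rose from 1, 1 and 2 counts to 36, 18 and 30 counts (adjusted p = 0.000351), which is too low in WT for a fold. Fgf5, the usual mark of leaving the naive state, was at no more than 3 counts in each library. Of the 6 fits that leave out 1 library, Otx2 was called only in that without KO replicate 1 and Sall2 only in that without WT replicate 3, and neither was called without replicate 2 of both groups.

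Of the 14 other genes of the KLF family, 12 were tested, 3 rose and 1 fell, and these 4 calls are again near the 29.7% over all genes. Klf7 rose by 1.51 ± 0.19 (SE, edgeR adjusted p = 0.00017), Klf11 by 1.25 ± 0.12 (adjusted p = 3.9e-05) and Klf13 by 0.79 ± 0.15 (adjusted p = 0.00179), and Klf12, a repressor of the family, fell by 2.75 ± 0.20 (adjusted p = 1.08e-05). In the KO, Klf7 was at 38.8 ± 3.43, Klf11 at 76.4 ± 8.76 and Klf13 at 99.0 ± 18.6 CPM (SD, n = 3). Klf13 was not called without WT replicate 1 or without replicate 2 of both groups. Klf3 and Klf15 were called with the replicate block and with DESeq2 (block adjusted p = 0.00027 and 0.00309). With the block, which raised the share of all genes called to 43.5%, the counts were 4 members, 5 other regulators, 8 marker genes, 6 formative and primed genes and 6 KLF family genes.

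**Figure D5:**
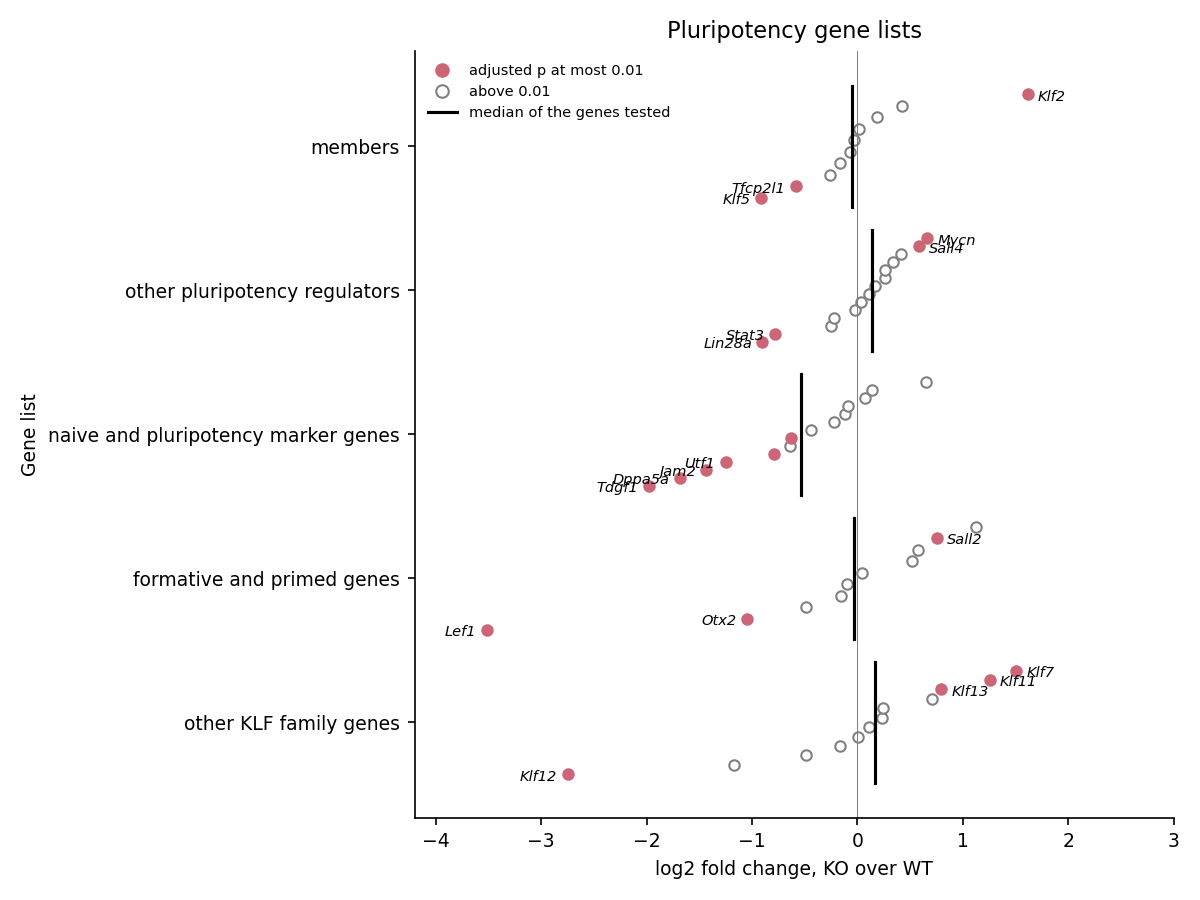
log2 fold change (KO over WT) of each tested gene in the 5 lists, filled where the adjusted p is at most 0.01, with a black line at the median of the genes drawn. The called genes of the naive and pluripotency marker list all lie below 0, whereas the members and the other lists hold called genes on both sides. Foxa2 is left out because it had no more than 3 counts in any WT library.

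Markers of other cell types moved in part with the genotype, and their part in the changes of the members was not tested. Of 6 trophoblast markers, 3 were tested and Gata3 rose (20, 17 and 11 counts in WT, 243, 232 and 133 in KO, edgeR adjusted p = 5.52e-05), while Cdx2 and Elf5 were too low to test. The list summed to 45.6 to 85.0 CPM in WT and 85.7 to 120 CPM in KO. Of 6 primitive endoderm markers, 4 were tested. Dab2 rose by 5.05 ± 0.20 on the log2 scale (SE, adjusted p = 3.37e-07) to 34.6 ± 6.35 CPM, whereas Gata4 fell by 1.59 ± 0.31 (adjusted p = 0.00206), and Sox17 and Sox7 were too low to test. That list summed to 7.09 to 9.82 CPM in WT and 33.1 to 45.8 CPM in KO. Of 8 early neural and mesoderm markers, 6 were tested and Olig2 rose from 0, 1 and 0 counts to 236, 304 and 232 counts (adjusted p = 1.43e-06). These summed to 67.8 to 111 CPM in WT and 82.8 to 100.2 CPM in KO. Of the 9 feeder fibroblast markers 4 were tested, of which Thy1 rose (1.19 ± 0.23, SE, adjusted p = 0.00206) and Pdgfrb fell (-0.88 ± 0.20, adjusted p = 0.00491).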

How the data were processed

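The deposited gene counts are whole, unnormalised numbers that the authors made by mapping single-end stranded reads to GRCm38 with STAR 2.6.1b and counting GENCODE genes with HTSeq 0.12.4 on the reverse strand. Lines of these files that name no gene (36.7 to 42.7% of all lines' counts) were left out. For mESC and HEK293T sites the deposited score is the output of m6Aboost, run by the authors on replicated PureCLIP peaks after mapping with STAR 2.7.3a. The score column deposited with the heart lists has no stated scale and only ranks sites within a list. Heart titles give 50, 100 and 300 in µg. The file names and the paper have ng, and ng is used here.

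The test was edgeR 4.0.16 under R 4.3.3 (glmQLFit and glmQLFTest after filterByExpr and TMM, no covariates), with genes called at a Benjamini-Hochberg adjusted p of at most 0.01. The SE is the log2 fold change divided by the square root of F. On simulated counts the fit was checked for known changes. Same-numbered WT and KO samples deviated together from their group means (r = 0.122, 0.464 and 0.303 for replicates 1, 2 and 3). Those of unequal number gave r of -0.342 to 0.110. The highest of these, WT replicate 3 with KO replicate 1, lay near the value of pair 1. The sample titles state no pairing. The numbers were taken to pair the samples, which is an assumption, and the block is given where it changes a call. Replicates are biological by the series' design text. Sites were assigned by strand to exons of GENCODE M21 (GRCm38), and windows were read from the RefSeq GRCm38.p6 genome, in Python 3.11.15 with pandas 2.3.3, NumPy 2.4.6, SciPy 1.17.1 and Matplotlib 3.10.9. TPM used the union exon length of M21, in which 98.1% of the listed genes had an entry. Results were recomputed with DESeq2 1.42.0, with its size factors in edgeR, with library size only, other filters on low counts, the replicate block, leaving out each library, other site filters and, chosen after seeing the data, leaving out replicate 2 of both groups, Klf2 or Klf2 and Zfp42.

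The members, lists and tests were chosen with earlier results of these data known. Named are all members, Mettl3 and, of each other list, up to 4 called genes with the largest change, and genes whose call depends on the block or that stand for a list were named after their values were seen. Windows are shown for the highest-scoring mESC sites and for sites shared with heart, of which those of Klf4 and Tbx3 were limited to the 300 ng list, and those of Klf2 and Zfp42 are not shown. The Nanog windows were chosen after seeing the sites. miCLIP2 of KO cells was not used here.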

Additional observations from a re-analysis of the deposited data

How the results depend on the processing

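Of 130 refits of the members' log2 fold changes, 113 kept their direction and their side of the threshold. The counts of called members stayed between 2 and 4 (2 to 3 when 1 library was left out), those of the other regulators between 3 and 6 (3 to 4), of the marker genes between 4 and 8 (4 to 6) and of the other KLF genes between 3 and 6 (3 to 5). The count of formative and primed genes moved from 4 to 2 under a filter of 10 counts in each library, and to 2 without replicate 2 of both groups, and was 2 to 4 when 1 library was left out. Exonic mESC sites fell from 97 to 64 at a score of at least 0.7, by construction. The Spearman correlation of site number and change lay between 0.02 and 0.23 when 1 library was left out, and was 0.63 without Klf2 and Zfp42. Its SD over the KO replicates was 0.22. This SD measures the spread between libraries and not the spread from leaving out genes. The sign turned for members that did not pass the test. Sox2 was at -0.00054 without replicate 2 of both groups and between -0.039 and 0.060 when 1 library was left out, below 0 without WT replicate 1 and without KO replicate 2 (-0.014). Nanog was at 0.041 and Tbx3 at 0.070 when only library size was used for scaling, which is below the shift of all genes. Leaving out 1 library put Nanog between -0.12 and 0.016, above 0 without WT replicate 3. For Tbx3 the range was -0.18 to 0.048, and it was above 0 without WT replicate 2 (0.0014), KO replicate 1 and KO replicate 3 (0.028). The cause was not tested. The replicate block added Esrrb (log2 fold change 0.43) to the called members and changed no other call among them. The lists hold 1 score per site, with no reads or replicates, so they do not show the depth behind a missing site.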

Other observations

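HEK293T, a human embryonic kidney line, gives a view of the same genes in human RNA (1 list from 4 replicates, GRCh38). Exonic sites were listed in SOX2 (4), TBX3 (13) and KLF4 (1), 18 in all, and in none of the other 7 genes. RNA levels in HEK293T were not analysed here, so absence of RNA and absence of m6A cannot be told apart. Of the 18 human windows of 21 nt, 7 shared at least 18 bases with the window of an mESC site in the mouse gene, 2 in SOX2 and 5 in TBX3. The KLF4 window shared 17 of 21. The SOX2 site at chr3:181713175 had the same 21 bases as the mouse site at chr3:34651236, 139 nt before the end of the stop codon.
SOX2 and Sox2: gacctccgGGACAtgatcagc
In TBX3, 2 further human sites matched mouse sites that only the heart list from 1 µg held. The site at chr12:114683121 (score 0.805) had the same 21 bases as the heart site at chr5:119672095, and that at chr12:114672013 (score 0.877) shared 18 of 21 with the heart site at chr5:119682920.
TBX3 and Tbx3: cgggcgccGGACTtcgccatg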
